A study of Mus musculus with 6 samples.

Results

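The genes described here write, erase and read histone acetylation in erythroid cells: 36 listed mouse genes for acetyltransferases, their coactivators, deacetylases outside the NuRD complex, sirtuins, corepressor scaffolds and bromodomain readers. They were chosen by name and class, with earlier results of these data known, and all 36 were found among the 48709 genes of the count table. The lists of related genes further below were also chosen with those results known. Of the 36 genes, 35 passed the filter on low counts that 12722 genes passed in all, and Hdac9 was listed at 0 counts in every library.

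RNA-Seq was performed on G1E-ER4 cells, a line of immature erythroblasts from mouse embryonic stem cells that lack endogenous GATA1. The line carries GATA1 fused to the ligand-binding domain of the estradiol receptor, so that tamoxifen brings the erythroid master regulator into the nucleus. Both groups received a peptide at 10 μM for 2 h and then tamoxifen for a further 28 h. In the CHD4-APR group (3 libraries) the peptide was the aggregation-prone region of the chromatin remodeler CHD4, and in the CTRL group (3 libraries) it was a stretch of alanines. Both peptides were joined to the Tat nuclear localization signal, and cells without tamoxifen or without peptide were not analysed here. The study compared the groups to ask how loosening CHD4 from its complexes affects transcription during erythroid maturation. The labels do not say that the 3 libraries of a group came from separate cultures, so p-values measure only the spread between these libraries, which may be technical. G1E-ER4 is a single line, and fewer cells of a kind cannot be told apart from less RNA per cell in bulk RNA.

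The libraries held between 41687482 and 49784177 counts, and the tested genes of the set had between 9 counts (Sirt5) and 18971 counts (Rcor1) in a library. All 12 erythroid marker genes passed the filter, with a summed level of 72845 to 78210 normalized CPM (counts scaled to the library total after TMM scaling) with CTRL and of 62368 to 66415 with CHD4-APR. Of the 12, 5 fell, which were Klf1 and the 4 globin genes that carry most of this sum, and 2 rose, Gata1 by 0.21 and Tfrc by 0.26 on the log2 scale. After a correction for exonic length and GC content Hbb-bt and Hbb-bs stayed lower (both -0.18), Gata1 stayed higher (0.34) and Slc4a1 was called higher (0.11), while Hba-a1 (-0.05), Hba-a2 (-0.03), Klf1 (0.001) and Tfrc (-0.02) no longer passed. Hemoglobin genes took 6.04% to 6.45% of the counts with CTRL and 5.11% to 5.44% with CHD4-APR. The counts of called genes in the set were the same when hemoglobin genes were left out. Of 7 myeloid markers 1 passed the filter, with Mpo and Ly6g at 0 and a summed level of 3.63 to 4.75 normalized CPM with CTRL and of 3.16 to 4.34 with CHD4-APR. Of 6 lymphoid markers 1 passed the filter, with Cd3e, Cd8a and Ms4a1 at 0, and the sums lay between 0.324 and 0.614 with CTRL and between 0.328 and 0.604 with CHD4-APR. Of 7 fibroblast and embryonic stem cell markers 0 passed and 6 were at 0, with sums of at most 0.145 normalized CPM. The part of hemoglobin and marker levels in the differences was not tested. Of 6 megakaryocyte markers 4 passed the filter, with Ppbp at 0, at 47.6 to 50.2 normalized CPM with CTRL and at 41.2 to 46.8 with CHD4-APR. Chd4 itself, whose protein the peptide imitates, stood at 231 ± 5.3 (SD, n = 3) normalized CPM in the CTRL group and 239.5 ± 2.6 in the CHD4-APR group, a log2 fold change of 0.05 (SE 0.04) that did not pass the test.

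Acetyl groups on histone tails loosen the hold of the histones on DNA and form docking sites for bromodomain proteins, and they are set by acetyltransferases and removed by deacetylases. GATA1 works with both sides, recruiting the acetyltransferases CBP and p300 at genes it activates and deacetylase complexes at genes it represses. Most of these enzymes act inside large assemblies, among them SAGA and ATAC around KAT2A or KAT2B, TIP60 around KAT5, NCoR around HDAC3, and SIN3 and CoREST around HDAC1 or HDAC2. NuRD, which joins CHD4 to HDAC1 and HDAC2, is a complex of the same kind.

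Of the 35 genes tested, 22 passed the test between the groups (edgeR's quasi-likelihood test, Benjamini-Hochberg adjusted p under 0.05 over all genes), 14 higher and 8 lower with CHD4-APR. Over all 12722 genes 38.3% passed, 20.4% higher and 17.8% lower. The groups did not overlap for 15 genes that were higher and 9 that were lower in all CHD4-APR libraries, beside 49.9% of all genes tested. The median log2 fold change was 0.04 over the 35 genes and -0.01 over all genes tested. The median moved with single libraries, to 0.01 without CTRL replicate 2 and to 0.07 without CHD4-APR replicate 3 or CTRL replicate 1. Leaving out CTRL replicate 3 gave 5 genes that fell, and leaving out CHD4-APR replicate 2 or replicate 3 gave 3. Among the 13 acetyltransferases and coactivators 7 rose and 2 fell, with a median log2 fold change of 0.21. After the correction for exonic length and GC content 5 of the 13 were called higher and 0 lower, with a median of 0.08. In that fit 1485 of all 12722 genes were called higher and 2024 lower, with a median of -0.02. Among the 15 tested deacetylases and sirtuins 3 rose and 6 fell, with a median of -0.10, and after the correction 2 were called higher and 4 lower, with a median of -0.05. Of the 4 corepressor scaffolds 3 rose, and of the 3 bromodomain readers 1 rose. Exonic length moved with the direction of the calls.

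**Figure D1:**
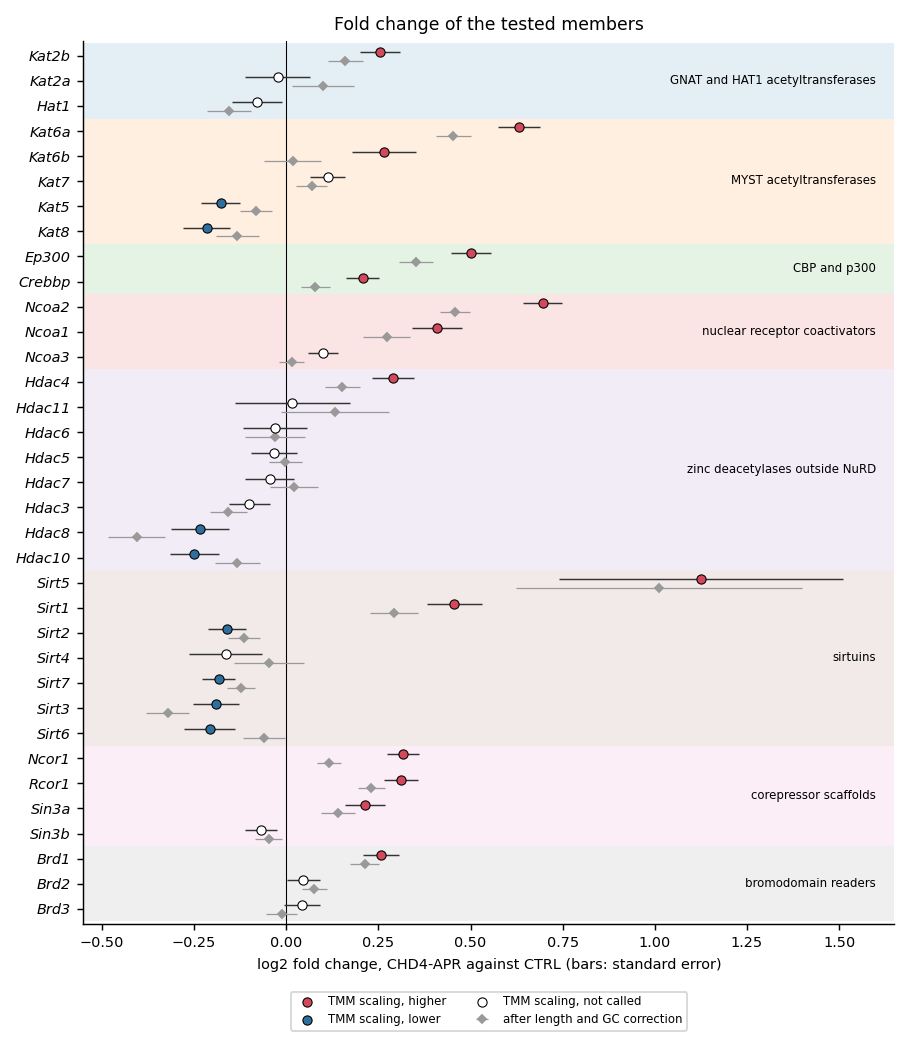
Log2 fold change of the 35 tested genes (horizontal axis, CHD4-APR against CTRL), with bars for the standard error, grouped by class. Red circles passed the test as higher (14 genes), blue circles as lower (8 genes) and open circles did not pass, and gray diamonds give the value after the correction for length and GC content.

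The promoters of the set are shown for genes that rose (Ncoa1, Sirt1, Rcor1 and Hdac4), for Hdac5 as the close relative of Hdac4 that did not pass the test, and for Kat8, which fell. They were chosen after the matches below were counted, from windows almost free of annotated exons. Each is the 250 bases before a RefSeq transcription start on GRCm38.p6, read 5′ to 3′ on the gene's strand. Capitals mark the GC box GGGCGG or its reverse complement CCGCCC, the core of the sites that SP and KLF family factors bind.
Ncoa1 (chr12:4477183-4477432, minus strand): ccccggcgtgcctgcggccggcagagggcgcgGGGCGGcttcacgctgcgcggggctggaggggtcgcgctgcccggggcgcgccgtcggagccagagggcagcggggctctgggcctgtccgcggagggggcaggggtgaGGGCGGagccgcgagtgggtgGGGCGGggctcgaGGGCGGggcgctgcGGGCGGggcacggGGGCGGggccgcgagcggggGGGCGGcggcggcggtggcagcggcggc
Sirt1 (chr10:63339036-63339285, minus strand): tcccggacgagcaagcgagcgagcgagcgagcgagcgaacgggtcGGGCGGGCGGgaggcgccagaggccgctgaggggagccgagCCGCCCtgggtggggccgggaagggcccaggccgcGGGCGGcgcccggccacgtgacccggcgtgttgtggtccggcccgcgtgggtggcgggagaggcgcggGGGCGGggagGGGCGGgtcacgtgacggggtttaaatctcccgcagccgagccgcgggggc
Rcor1 (chr12:111039117-111039366, plus strand): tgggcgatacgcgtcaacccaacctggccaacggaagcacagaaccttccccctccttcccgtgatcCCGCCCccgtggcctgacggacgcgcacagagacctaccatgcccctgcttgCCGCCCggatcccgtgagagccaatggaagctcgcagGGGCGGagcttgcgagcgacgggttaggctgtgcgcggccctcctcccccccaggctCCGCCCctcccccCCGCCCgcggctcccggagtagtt
Hdac4 (chr1:92180342-92180591, minus strand): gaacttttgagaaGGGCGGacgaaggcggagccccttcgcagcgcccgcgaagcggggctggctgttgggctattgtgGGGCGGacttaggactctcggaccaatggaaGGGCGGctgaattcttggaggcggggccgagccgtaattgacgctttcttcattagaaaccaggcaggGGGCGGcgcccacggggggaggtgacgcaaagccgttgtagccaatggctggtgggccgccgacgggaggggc
Hdac5 (chr11:102230173-102230422, minus strand): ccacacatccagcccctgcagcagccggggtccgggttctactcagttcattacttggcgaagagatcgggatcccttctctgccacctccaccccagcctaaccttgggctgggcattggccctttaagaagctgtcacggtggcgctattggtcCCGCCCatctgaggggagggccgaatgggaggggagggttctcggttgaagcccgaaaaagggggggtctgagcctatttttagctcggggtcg
Kat8 (chr7:127912267-127912516, plus strand): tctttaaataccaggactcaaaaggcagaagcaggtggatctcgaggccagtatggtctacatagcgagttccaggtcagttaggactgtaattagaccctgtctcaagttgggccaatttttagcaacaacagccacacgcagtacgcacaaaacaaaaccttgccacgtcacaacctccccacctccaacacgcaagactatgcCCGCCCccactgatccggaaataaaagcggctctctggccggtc
Ncoa1 held 7 GC boxes in its 250 bases, Sirt1 held 6, Rcor1 held 5 and Hdac4 held 4. Hdac5 and Kat8 held 1 each. The number did not follow the direction over the whole set, since Hdac6, which did not pass, held 4 in its window, Kat5, which fell, held 3 in 1 of its windows, and Kat2b, which rose, held 0 in both of its windows. RefSeq windows were found for 31 of the 36 genes, 45 windows in all, with none for Kat6a, Ncoa2, Ncoa3, Hdac3 and Hdac10. A GC box on either strand was present in 28 of the 45 windows (62.2%), against 32.7% of 32851 promoter windows of the same length. Some of the 45 windows lie wholly in annotated exons, among them those of Crebbp, Ep300, Hat1 and Sirt7. Exon overlap was not counted for the 32851 windows. It was present in 13 of 16 windows of the genes that rose (81.2%, where the 2 windows of Kat6b share 235 bases), in 7 of 11 windows of the genes that fell (63.6%) and in 8 of 16 windows of the genes that did not pass (50.0%). The windows also differed in composition, with a median of 25 CpG dinucleotides in the genes that rose, 13 in the genes that fell, 15.5 in the genes that did not pass and 6 over all windows.

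The motif of GATA factors (GATA with A or T before it and A or G after it, on either strand) was present in 10 of the 45 windows (22.2%) and in 26.5% of all windows. It was found in 2 of 16 windows of the genes that rose and in 2 of 11 windows of the genes that fell, and in 5 of 16 windows (31.2%) of the genes that did not pass. The CACCC box of KLF factors (CCACCC) was present in 42.2% of the windows of the set and 28.1% of all windows, and CCAAT in 37.8% and 33.8%. Matches of these motifs and of the GC box can share bases. The window of Kat2b at a second start inside the gene is shown because it held 2 GATA motifs, in capitals, set apart by 1 base. A window of Sirt2, which fell, and 1 of Hdac9 also held 2.
Kat2b (chr17:53583876-53584125, plus strand): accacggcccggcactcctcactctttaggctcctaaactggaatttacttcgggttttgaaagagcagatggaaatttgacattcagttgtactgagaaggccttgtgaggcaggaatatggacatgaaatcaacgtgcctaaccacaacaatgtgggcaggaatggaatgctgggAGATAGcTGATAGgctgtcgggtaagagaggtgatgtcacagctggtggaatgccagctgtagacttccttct
Gene starts in this window are as RefSeq gives them, and which start was used in these cells was not measured by gene counts.

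Levels between genes were compared per kilobase of exons. Rcor1, which encodes the CoREST scaffold, was the most abundant of the set at 65.4 normalized CPM per kb over all 6 libraries, above 93.4% of the genes tested. The cytoplasmic and nuclear deacetylase gene Sirt2 followed at 48.7, then Brd2 at 28.6, Ncor1 at 27.6, Hdac5 at 20.7 and Ncoa3 at 20.1. At the other end stood Kat6b at 1.19, Hdac11 at 0.914 and Sirt5 at 0.0786 normalized CPM per kb, the last above 1.89% of the genes tested. Hdac9 was at 0 counts in all 6 libraries, where a count of 0 allows up to 3 counts or 0.0603 to 0.0720 CPM in a library by counting error alone. Whether reads of Hdac9 were counted under another identifier is not known.

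**Figure D2:**
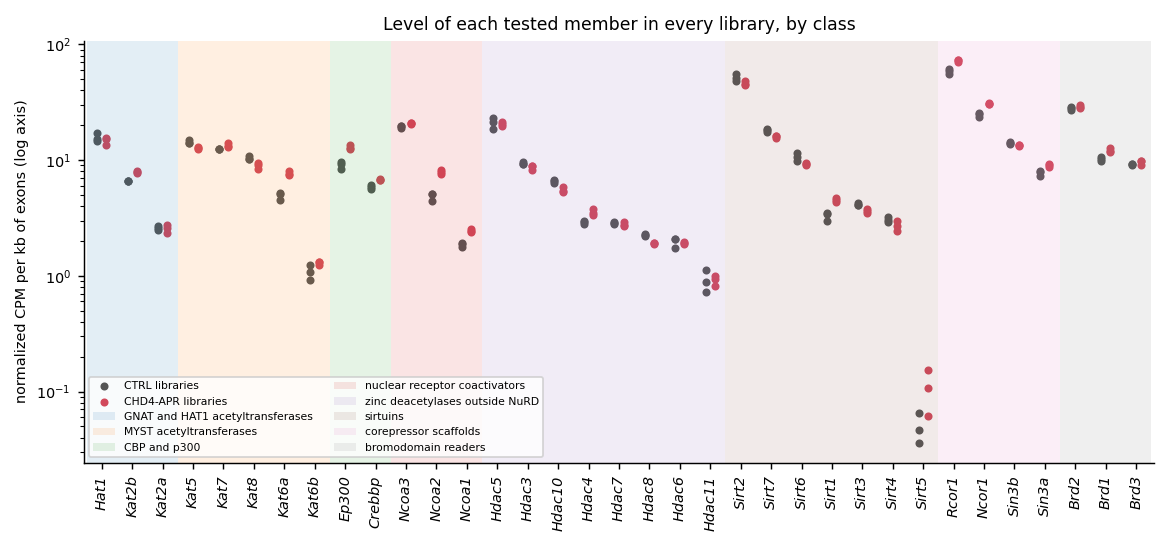
Normalized CPM per kilobase of exons (vertical log axis) of the 35 tested genes in each of the 3 CTRL (gray) and 3 CHD4-APR (red) libraries, ordered within shaded classes. Rcor1 lies highest at 65.4 over all libraries and Sirt5 lowest at 0.0786.

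Levels were also summed per kilobase over each class. The CBP and p300 pair stood at 15.0 ± 0.90 normalized CPM per kb (SD, n = 3) in the CTRL group and at 19.6 ± 0.57 in the CHD4-APR group, and the nuclear receptor coactivators at 26.1 ± 0.27 and 31.1 ± 0.47. The corepressor scaffolds stood at 105 ± 4.7 and 125 ± 1.6. Sirtuins stood at 90.7 ± 4.8 and 82.1 ± 2.5, of which Sirt2 made up the larger share. The bromodomain readers stood at 47.6 ± 1.4 and 50.8 ± 1.8. The groups did not overlap in these 5 classes, and the sums were not tested. The sums of the zinc-dependent deacetylases (47.8 ± 2.8 and 45.8 ± 0.42), the MYST enzymes (43.2 ± 0.65 and 44.1 ± 1.2) and the GNAT enzymes with Hat1 (24.8 ± 1.2 and 25.2 ± 1.2) overlapped between the groups.

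The p160 coactivators bind ligand-activated nuclear receptors and bring in CBP and p300. Ncoa2 (chr1:13139105-13374083 on GRCm38) stood at 69.7, 79.5 and 79.0 normalized CPM with CTRL and at 124, 127 and 119 with CHD4-APR. Every CHD4-APR library lay above every CTRL library, and the log2 fold change of 0.70 (SE 0.05, adjusted p = 3.91e-07, edgeR) was a 1.62-fold rise. Ncoa1 rose by 0.41 (SE 0.07, adjusted p = 2.03e-04), from 16.1, 16.4 and 15.1 to 21.8, 20.4 and 21.05 normalized CPM, again without overlap. Ncoa3, the most abundant coactivator of the 3, stood at 155, 151 and 155 with CTRL and at 165, 166 and 162 with CHD4-APR. These groups did not overlap either, but the log2 fold change of 0.10 (SE 0.04) missed the threshold (adjusted p = 0.0669). After the correction for length and GC content Ncoa3 stood at 0.01 (adjusted p = 0.809, edgeR).

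CBP and p300 are large, closely related acetyltransferases that mark active enhancers. Ep300 (chr15:81585351-81652077) stood at 119, 132 and 139 normalized CPM with CTRL and at 182, 191 and 177 with CHD4-APR. It rose by 0.50 on the log2 scale (SE 0.05, adjusted p = 4.74e-06, edgeR), or 1.41-fold. Crebbp rose less, from 79.5 to 91.8 normalized CPM, a log2 fold change of 0.21 (adjusted p = 1.82e-03). After the correction for length and GC content Ep300 kept a log2 fold change of 0.35, while that of Crebbp was 0.08 and no longer passed (adjusted p = 0.142).

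Among the MYST enzymes, named after founding members of the family, the MOZ gene Kat6a (chr8:22859535-22943259) showed the largest change. It stood at 41.7, 48.0 and 46.5 normalized CPM with CTRL and at 68.7, 73.4 and 69.1 with CHD4-APR, a rise of 0.63 on the log2 scale (SE 0.06, adjusted p = 1.17e-06, edgeR). The groups lay far apart relative to the spread within each. Its paralog Kat6b, the MORF gene, stood at 15.5, 18.2 and 20.7 and at 22.4, 20.9 and 22.1 normalized CPM, with CTRL replicate 3 just under the lowest CHD4-APR library. Its rise of 0.26 (SE 0.09, adjusted p = 0.0233) fell to 0.02 after the correction for length and GC content and also missed the threshold when CTRL replicate 1 (0.17) or CHD4-APR replicate 1 (0.25) or 3 (0.26) was left out.

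The other MYST genes went down or did not pass. Kat5, which encodes the catalytic subunit of TIP60, had the highest level of the class per kilobase over all 6 libraries (13.5 normalized CPM per kb, with Kat7 at 12.9 and above it in the CHD4-APR group). It stood at 52.8, 49.2 and 49.3 normalized CPM with CTRL and at 45.5, 44.2 and 44.0 with CHD4-APR. The groups did not overlap, and Kat5 fell by 0.18 on the log2 scale (SE 0.05, adjusted p = 0.0121, edgeR). Kat8, the MOF gene for the acetyltransferase of the MSL and NSL complexes, fell by 0.22 (adjusted p = 0.0139). Kat7, the HBO1 gene, had a log2 fold change of 0.11 (adjusted p = 0.0768). The call of Kat5 was lost without CHD4-APR replicate 2 (-0.17) or replicate 3 (-0.16) and after the correction (-0.08), and that of Kat8 without CHD4-APR replicate 2 (-0.17) and after the correction (-0.13). Reads in exons that Kat5 shares with the antisense gene Rnaseh2c, 12.1% of its exonic bases, could belong to either gene.

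Of the GNAT enzymes, the PCAF gene Kat2b stood at 32.1, 32.2 and 32.1 normalized CPM with CTRL and at 39.4, 37.7 and 38.0 with CHD4-APR. It rose by 0.26 (SE 0.05, adjusted p = 1.38e-03, edgeR) with no overlap between the groups, and by 0.16 after the correction. Its paralog Kat2a, the GCN5 gene, had a log2 fold change of -0.02 (SE 0.09). Hat1, which acetylates newly made histone H4 before it is deposited, stood at 41.9, 49.1 and 43.9 with CTRL and at 38.8, 45.2 and 43.9 with CHD4-APR. These values overlapped, and the log2 fold change was -0.08 (SE 0.07, adjusted p = 0.395). After the correction Hat1 stood at -0.16 (adjusted p = 0.0593, edgeR), and leaving out a library gave -0.128 to -0.011. It was called lower in 1 of the 18 alternatives that were run.

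**Figure D3:**
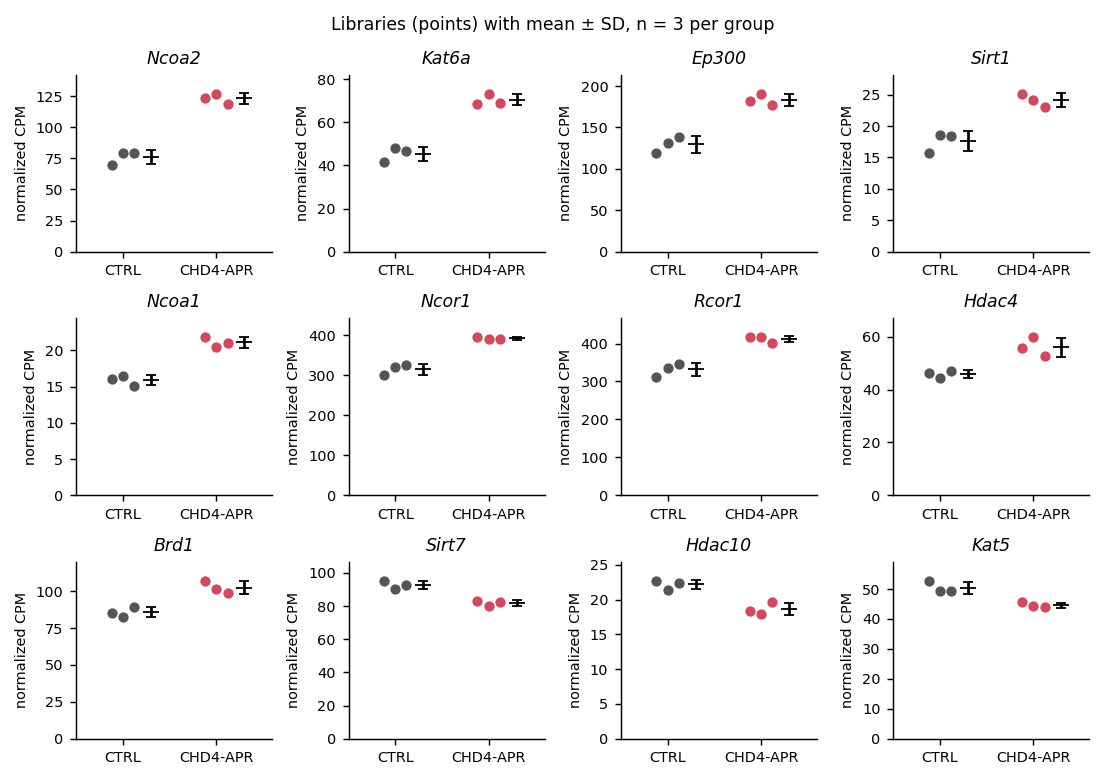
Normalized CPM (vertical axes from 0) in the 3 CTRL (gray) and 3 CHD4-APR (red) libraries of 12 genes, with the mean and SD of each group (n = 3) in black. The first 9 panels, from Ncoa2 to Brd1, rose and the last 3 (Sirt7, Hdac10 and Kat5) fell, and in none of the 12 do the groups overlap. The 12 were picked from the called genes, and Sirt5 and Sirt2, called with overlapping groups, are not drawn. Over all genes tested the groups did not overlap for 49.9%. Hdac10 and Kat5 no longer passed after the correction for length and GC content.

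The zinc-dependent deacetylases outside NuRD fall into class I (Hdac3 and Hdac8), class IIa (Hdac4, Hdac5, Hdac7 and Hdac9), class IIb (Hdac6 and Hdac10) and class IV (Hdac11). Of the 8 tested, 1 rose and 2 fell, and the 37.5% called lie near the 38.3% of all genes. Hdac4, a class IIa enzyme that shuttles between nucleus and cytoplasm, stood at 46.3, 44.2 and 47.1 normalized CPM with CTRL and at 55.6, 59.9 and 52.7 with CHD4-APR. It rose by 0.29 (SE 0.06, adjusted p = 7.64e-04, edgeR), and by 0.15 after the correction for length and GC content. Its groups did not overlap. An antisense gene, Gm26720, shares 22.4% of the exonic bases of Hdac4, so part of its counts could belong to either gene.

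Hdac5, the most abundant of these deacetylases, stood at 203, 163 and 187 normalized CPM with CTRL and at 188, 178 and 174 with CHD4-APR. The CHD4-APR values all lay within the CTRL range, and the log2 fold change was -0.03 (SE 0.06). Hdac10, known as a polyamine deacetylase, fell from 22.2 to 18.6 normalized CPM (-0.25, adjusted p = 7.02e-03), and Hdac8, which acts on cohesin, from 10.9 to 9.24 (-0.23, adjusted p = 0.0262). Hdac10 no longer passed after the correction for length and GC content (-0.13), whereas Hdac8 passed with -0.41. Hdac8 missed the threshold without CTRL replicate 3 (-0.23) or without CHD4-APR replicate 1 (-0.24), replicate 2 (-0.22) or replicate 3 (-0.23), and when no filter on low counts was applied (-0.23).

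Hdac3, the catalytic subunit of the NCoR complex, was lower in every CHD4-APR library but did not pass, with a log2 fold change of -0.10 (adjusted p = 0.169). After the correction it passed at -0.16 (adjusted p = 0.0264). Hdac6, Hdac7 and Hdac11 had log2 fold changes of -0.03, -0.05 and 0.02, each with overlapping groups. NuRD's own deacetylase genes did not pass either, at 0.10 (adjusted p = 0.142) for Hdac1 and 0.12 (adjusted p = 0.132) for Hdac2, and stood at 0.12 and -0.06 after the correction.

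Sirtuins remove acetyl and related acyl groups with NAD as cosubstrate, SIRT1, SIRT6 and SIRT7 mainly in the nucleus and SIRT3, SIRT4 and SIRT5 in mitochondria. Of the 7 genes 2 rose and 4 fell, beside 20.4% and 17.8% of all genes. Sirt1 stood at 15.7, 18.6 and 18.4 normalized CPM with CTRL and at 25.2, 24.2 and 23.0 with CHD4-APR. The groups did not overlap, and Sirt1 rose by 0.46 on the log2 scale (SE 0.07, adjusted p = 1.86e-04, edgeR).

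Sirt2, the most abundant sirtuin gene, stood at 277, 241 and 259 normalized CPM with CTRL and at 243, 225 and 227 with CHD4-APR. Its groups overlapped, since CHD4-APR replicate 1 lay above CTRL replicate 2, and it fell by 0.16 (SE 0.05, adjusted p = 0.0215, edgeR). Sirt7, the sirtuin of the nucleolus, fell by 0.18 (adjusted p = 4.27e-03), Sirt3 by 0.19 (adjusted p = 0.0221) and Sirt6 by 0.21 (adjusted p = 0.0231). Sirt4 had a log2 fold change of -0.16 and did not pass (adjusted p = 0.215), and stood at -0.05 after the correction for length and GC content. Sirt3 and Sirt7 also passed after the correction for length and GC content, with -0.32 and -0.12, while Sirt2 (-0.11) and Sirt6 (-0.06) did not. The call of Sirt2 was lost when CTRL replicate 1 (-0.11) or 3 (-0.16) or CHD4-APR replicate 2 (-0.14) or 3 (-0.14) was left out. That of Sirt6 was lost when CTRL replicate 1 (-0.14) or 3 (-0.21) or CHD4-APR replicate 2 (-0.20) or 3 (-0.19) was left out, and that of Sirt3 without CHD4-APR replicate 1 (-0.16) or replicate 3 (-0.19). Sirt3 shares 12.7% of its exonic bases with the antisense genes Psmd13 and Ric8a.

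Sirt5, which removes succinyl and malonyl groups, had the largest fold change and the fewest counts of the tested genes of the set. It had 17, 14 and 9 counts with CTRL and 42, 16 and 31 with CHD4-APR, or 0.401, 0.284 and 0.217 against 0.939, 0.374 and 0.656 normalized CPM. The groups overlapped, with CHD4-APR replicate 2 below CTRL replicate 1. The log2 fold change was 1.13 (SE 0.39, adjusted p = 0.0294, edgeR), and the gene was not tested where 10 counts were required in every library. Its call was lost after the correction (1.01, adjusted p = 0.0629) and when CTRL replicate 2 (1.08) or 3 (0.95) or CHD4-APR replicate 1 (0.79) or 3 (1.13) was left out.

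Corepressor scaffolds hold deacetylases at repressed genes. Ncor1, the scaffold of HDAC3, stood at 299.8, 319 and 325 normalized CPM with CTRL and at 395, 390.3 and 390.1 with CHD4-APR. The CHD4-APR libraries lay close together and above all CTRL libraries, and Ncor1 rose by 0.32 (SE 0.04, adjusted p = 3.63e-05, edgeR). After the correction for length and GC content its log2 fold change was 0.12 and still passed (adjusted p = 0.0164). Rcor1, which couples the demethylase LSD1 to HDAC1 and HDAC2 and works with GFI1B in erythroid cells, stood at 312, 336 and 347 and at 416, 417 and 402 normalized CPM. It rose by 0.31 (SE 0.05, adjusted p = 7.63e-05) with no overlap, and by 0.23 after the correction. Sin3a rose by 0.21 (adjusted p = 5.17e-03), and by 0.14 after the correction, while Sin3b had a log2 fold change of -0.07 and did not pass (adjusted p = 0.225).

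Bromodomain proteins bind acetylated lysines. Brd1, a scaffold of the HBO1 and MOZ acetyltransferases, stood at 85.2, 82.8 and 89.3 normalized CPM with CTRL and at 107, 101 and 99.0 with CHD4-APR. It rose by 0.26 (SE 0.05, adjusted p = 5.81e-04, edgeR), and the groups did not overlap. Brd2, of the BET family, was the most abundant at 227, 210.5 and 223 against 236, 224 and 222 normalized CPM. Its groups overlapped, and its log2 fold change was 0.05 (SE 0.05, adjusted p = 0.45). Brd3, of the same family, had a log2 fold change of 0.04 and did not pass (adjusted p = 0.521). Brd2 shares 9.8% of its exonic bases with antisense genes.

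Ratios within a library do not depend on how libraries are scaled. The ratio of Ep300 to Crebbp counts was 1.54, 1.64 and 1.70 with CTRL and 1.99, 2.05 and 1.95 with CHD4-APR. Kat6b over Kat6a was 0.372, 0.379 and 0.446 in the CTRL group and 0.326, 0.285 and 0.320 in the CHD4-APR group. Hdac5 over Hdac4 was 4.38, 3.68 and 3.97 in the CTRL group and 3.38, 2.98 and 3.30 in the CHD4-APR group. None of these ratios overlapped between the groups, and the balance lay further toward Ep300, Kat6a and Hdac4 in every CHD4-APR library. Kat2b over Kat2a and Sin3b over Sin3a also did not overlap, with log2 differences of 0.28 and -0.28 between the groups, beside -0.32 for Hdac5 over Hdac4. After the correction for length and GC content these 3 differences were 0.06 (exact p = 0.7, n = 3 per group), -0.19 and -0.15. Without the correction, for these 5 ratios of the 6 compared, the two-sided exact permutation test gave p = 0.1, the smallest that 3 libraries against 3 allow, and 0.12 after Benjamini-Hochberg adjustment over the 6. Brd3 over Brd2 differed by -0.005 on the log2 scale (exact p = 0.8, n = 3 per group), and by -0.09 after the correction (exact p = 0.1).

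**Figure D4:**
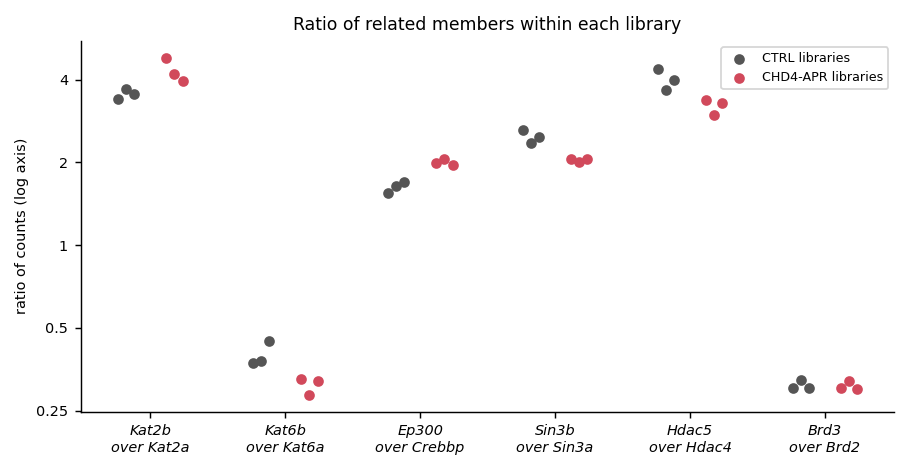
Ratio of the counts of related genes (vertical log axis) within each of the 3 CTRL (gray) and 3 CHD4-APR (red) libraries. The groups do not overlap for the first 5 ratios, while Brd3 over Brd2 lies between 0.300 and 0.323 in both groups.

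The genes that rose were longer than those that fell. The 14 that rose had a median exonic length of 8878 bases (4867 to 16826) and the 8 that fell 4174 bases (2785 to 5973), beside 3688 over all genes tested. All 7 tested genes of the set with exons of 9000 bases or more rose (Kat6a, Kat6b, Crebbp, Ep300, Ncoa2, Hdac4 and Ncor1), in a length class where 57.6% of all genes tested rose and 2.72% fell. Of the 8 genes between 2000 and 4000 bases none rose and 4 fell, in a class where 9.84% of all genes rose and 23.7% fell. Between 4000 and 6000 bases 4 of 11 rose and 4 fell, against 22.8% and 14.8% of all genes. Between 6000 and 9000 bases 3 of 9 rose and none fell, against 39.1% and 8.02%. GC content ran the other way, with a median of 48.4% in the genes that rose and 54.4% in those that fell.

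A smooth trend on length and GC content, removed from each library, left 15 of the 35 genes called, 11 higher and 4 lower, and 3509 of all genes, 1485 higher and 2024 lower. The 11 were Kat2b, Kat6a, Ep300, Ncoa1, Ncoa2, Hdac4, Sirt1, Ncor1, Sin3a, Rcor1 and Brd1, all of them also called without the correction. Kat6a stood at 0.45, Ncoa2 at 0.46, Sirt1 at 0.29 and Ncoa1 at 0.27 after it. Hdac8, Sirt3 and Sirt7 were lower in both fits. The calls of Kat6b, Crebbp, Sirt5, Kat5, Kat8, Hdac10, Sirt2 and Sirt6 were lost, and Hdac3 was called in the corrected fit and not in the other. The same 11 genes were called higher under every other alternative that was run, and of the genes that fell Sirt7 alone kept its call under all of them, adjusted p under 0.01 included. Beyond this correction the part of length and GC content in the differences was not tested.

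**Figure D5:**
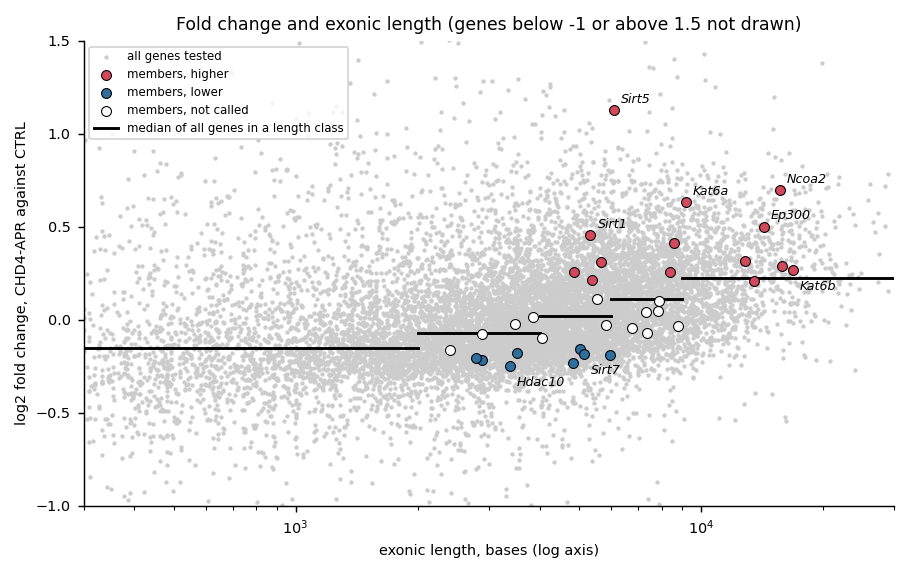
Log2 fold change (vertical axis) against exonic length (horizontal log axis) of all genes tested (gray) and of the 35 genes of the set (circles, red for higher, blue for lower, open for not called). Black lines give the median of all genes in a length class, which goes from -0.15 under 2000 bases to 0.22 from 9000 bases, and the 7 longest tested genes of the set are all red.

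The other subunits of the same complexes and other readers were taken from lists of 113 genes, of which 110 were tested. Of these, 59 passed the test, 41 higher and 18 lower, beside 38.3% of all genes, with a median log2 fold change of 0.06. After the correction for length and GC content 30 were called higher and 15 lower, with a median of 0.02, beside 1485 higher and 2024 lower of all 12722 genes. In the acetyltransferase complexes, 5 of 19 SAGA and ATAC genes rose and 3 fell, led by the deubiquitinase module gene Atxn7 at 0.67 (0.49 after the correction). After the correction 3 genes of this list were called higher and 2 lower, some of them not called before it. Of 14 TIP60 genes 7 rose and 3 fell, with Mbtd1 at 0.56, Epc2 at 0.50 and Ing3 at 0.32. After the correction these stood at 0.16, 0.34 and 0.11, and Ing3 no longer passed. The list then had 6 higher and 5 lower, and Morf4l1, one of the 7 that rose (0.21), was called lower (-0.13). It is outside the rule for named genes and was named after its values were seen. Of 8 scaffolds of MOZ, MORF and HBO1, 3 rose (Jade1 at 0.56, Jade3 at 0.54 and Ing5 at 0.41) and 0 fell, and these 3 also passed after the correction, at 0.34 to 0.36. Of 8 MSL and NSL genes, the partners of KAT8, 3 rose and 1 fell, with Msl2 at 0.45 and Kansl1 at 0.31. Msl2 and Kansl1 stood at 0.21 and 0.26 after the correction, when 3 genes were called higher, not the same 3, and 0 lower.

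Among the deacetylase complexes 5 of 14 NuRD genes passed (35.7%, beside 38.3% of all genes), 2 higher (Gatad2b at 0.21 among them) and 3 lower, among them Mbd3 at -0.27 and Cdk2ap1 at -0.20. After the correction 2 NuRD genes were called higher and 2 lower, while Gatad2b (-0.04), Mbd3 (-0.11) and Cdk2ap1 (-0.05) did not pass. Of 13 SIN3 genes 4 rose and 3 fell. After the correction 4 were called higher and 3 lower, which need not be the same genes. The largest values were those of Arid4b (0.70), Sinhcaf (0.69) and Arid4a (0.45), with 0.30, 0.51 and 0.28 after the correction. Arid4b stood at 32.7, 39.5 and 39.6 normalized CPM with CTRL and at 61.5, 64.1 and 55.7 with CHD4-APR. Of 11 CoREST and MiDAC genes 5 rose and 2 fell, and after the correction 3 were called higher and 0 lower. Rcor3, the paralog of Rcor1, stood at 9.70, 10.8 and 9.81 and at 15.8, 14.6 and 13.2 normalized CPM, a rise of 0.52 (adjusted p = 1.91e-04, edgeR) that was 0.18 and did not pass after the correction for length and GC content (adjusted p = 0.107). Rcor2 was low, at 0.700 and 0.615 normalized CPM, and did not pass (adjusted p = 0.643). In the NCoR complex Tbl1x (0.30) and Tbl1xr1 (0.27), which exchange corepressors for coactivators, rose and Gps2 fell by 0.20. After the correction Tbl1x passed at 0.13, while Tbl1xr1 (-0.05) and Gps2 (-0.03) did not.

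The largest fold among the related genes was in the readers, where 8 of 12 rose (66.7%, beside 20.4% of all genes) and 1 fell. The readers had a median exonic length of 12348 bases, in the length class where 57.6% of all genes rose, and after the correction 4 were called higher and 2 lower. Atad2b, a bromodomain ATPase gene, stood at 15.9, 26.2 and 25.3 normalized CPM with CTRL and at 50.6, 56.4 and 47.7 with CHD4-APR. It rose by 1.20 on the log2 scale (SE 0.12, adjusted p = 3.22e-06, edgeR), with CTRL replicate 1 the lowest library and every CHD4-APR library above every CTRL library, and by 0.85 after the correction. Its paralog Atad2 rose by 0.58 and Brwd3 by 0.51, and after the correction Atad2 passed at 0.19 and Brwd3, at 0.10, did not. Of 8 genes that supply acetyl-CoA and NAD, 2 rose and 1 fell (37.5% called). The ATP citrate lyase gene Acly, which makes nuclear and cytosolic acetyl-CoA from citrate, rose by 0.25, and Slc25a1, the mitochondrial citrate carrier, fell by 0.26. Nampt, which sets the pace of NAD recycling for the sirtuins, rose by 0.18. After the correction Acly still passed, at 0.25, while Slc25a1 (-0.09) and Nampt (-0.06) did not.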

How the data were processed

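RNA from 6 samples (3 CTRL, 3 CHD4-APR) was sequenced from TruSeq RNA v2 libraries. The authors trimmed reads with Cutadapt, aligned them with STAR 2.7.10a to Ensembl GRCm38 and counted them per gene with featureCounts, and deposited the counts without normalization. Strand and multi-mapping settings are not given in the sources used here, so reads of overlapping or antisense genes cannot be told apart. The table held 2 columns that match no sample and were not used. The growth protocol gives tamoxifen as 100 nM and the design text as 100 μM.

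Genes were named with GENCODE M21 on GRCm38 (48349 of 48709 identifiers), and Mideas was matched by its older symbol Elmsan1. Exonic length is the union of exons. The groups were compared over all genes with edgeR 4.0.16 in R 4.3.3 (filterByExpr, TMM, quasi-likelihood test, no block, Benjamini-Hochberg, threshold 0.05). Normalized CPM are counts relative to the TMM-scaled library total. Ratios added 0.5 counts to each gene and were compared by a two-sided exact permutation test. Alternatives were DESeq2 1.42.0, limma-voom 3.58.1, other scalings and filters, a replicate block, a trend on length and GC content (mgcv 1.9.3) given to edgeR as offsets, adjusted p under 0.01, and each library left out. Scripts were tested on simulated data. The common biological coefficient of variation was 0.0518. Intervals and floors of 0 counts cover counting error only.

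The genes and lists were chosen with earlier results of these data known. Values in every library are given for called genes among the 12 largest absolute log2 fold changes and for the highest gene per kilobase of each class. Of each partner list at most 3 called genes with the largest change are named, plus Hdac1, Hdac2, Rcor2, Rcor3 and Chd4, and a few other genes of the lists are not reported here. Promoter windows are RefSeq's.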

Additional observations from a re-analysis of the deposited data

How the results depend on the processing

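The 22 called genes of the set, 14 higher and 8 lower, were found in the same numbers with DESeq2, limma-voom, RLE and upper quartile scaling, without hemoglobin genes and among protein-coding genes alone. With upper quartile scaling all genes tested split into 2419 higher and 2601 lower. At adjusted p under 0.01 the set had 14 called genes, 2 of them lower. After the length and GC correction 4 were lower and the median log2 fold change was 0.021. Leaving out each library gave 15 to 21 called genes, 3 to 8 lower (5 without CTRL replicate 3, 3 without CHD4-APR replicate 2 or replicate 3) and medians of 0.014 to 0.070 (0.069 without CTRL replicate 1).

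In the set, signs changed for genes that were not called. Of the called partner genes 9 changed sign after the length and GC correction, with Morf4l1 called the other way (0.21 and -0.13). Hdac11 was at -0.000464 with upper quartile scaling. Kat2a was at 0.10, Hdac7 at 0.021 and Brd3 at -0.012 after the length and GC correction, and at 0.097, 0.023 and -0.012 with the correction and the replicate block together. Leaving out a library gave -0.075 to 0.037 for Kat2a, -0.117 to 0.042 for Hdac5, -0.119 to 0.014 for Hdac6 and -0.132 to 0.188 for Hdac11. The log2 difference of Brd3 over Brd2 was -0.031 to 0.028 when a library was left out. The cause was not tested.

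With the replicate number as a block, 22 genes of the set were called, 14 higher and 8 lower, and 5214 of all genes. Deviations of libraries with the same number correlated at 0.070, 0.055 and -0.035, and CTRL replicate 3 correlated best with CHD4-APR replicate 2 (0.034), so the numbers were not taken as pairs. With the correction and the block together 18 genes were called, 12 higher and 6 lower. Depth limits Sirt5, at 9 to 42 counts.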
